A study of Mus musculus with 8 samples.

Results

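Mouse embryonic stem (ES) cells of clone 7, a line without the Ctcfl transgene, were compared with and without doxycycline, and the genes described are those whose deposited expression value reached 1 FPKM (fragments normalised to transcript length and library size) in either group. These were 12239 of the 23284 gene entries that the authors deposited. The study grew clone 7 and clone 6, which carries a Ctcfl transgene that doxycycline induces, for 48 h after removal from embryonic fibroblast feeder cells, with 2 µg/ml doxycycline or with none. Ctcfl is a germline relative of the chromatin insulator protein Ctcf. Each of the 4 groups held 2 libraries, 1 from each of 2 experiments, sequenced as 75 bp single-end reads. All groups shared a mixed strain background, the ES medium and the earlier feeder culture. Each line is 1 clone, and the labels do not say whether clone 7 carries the doxycycline-responsive activator that such systems use.

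Doxycycline is a tetracycline antibiotic that binds the bacterial ribosome, and it also slows the related ribosome inside mitochondria, which makes the membrane subunits of the respiratory chain. Cells that adjust their energy supply can do so through glycolysis and through the hypoxia-inducible factors, whose level is set by the oxygen-using prolyl hydroxylases Egln1 to Egln3. ES cells also move between a naive state, marked by factors such as Esrrb, Klf4, Nr0b1 and Nr5a2, and a primed state that prepares for differentiation.

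The authors' deposited table holds 1 FPKM value per gene and group, which combines both libraries, so no value below carries an SD and library depth is unknown. FPKM summed to 721623 with doxycycline and 717813 without it in clone 7. The ES cell markers Pou5f1, Sox2, Nanog, Zfp42, Esrrb and Dppa5a together stood at 2866 and 2576 FPKM. 8 of 9 fibroblast markers reached 1 FPKM, and the list summed to 171 and 174 FPKM. Summed markers of trophoblast (0.768 and 0.914 FPKM) and primitive endoderm (0.654 and 0.802 FPKM) stayed below 1 FPKM in both groups, and neural markers summed to 52.7 and 54.6 FPKM, nearly all of it Tubb3. Ctcfl itself was at 0.498 FPKM with and 0.513 FPKM without doxycycline, and Ctcf at 56.8 and 52.7 FPKM.

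No gene passed the authors' test in clone 7. Of 12908 tested genes, 0 had a deposited q-value under 0.05 (0% called by the table, whose columns are those of Cuffdiff), and 14 had an unadjusted p-value under 0.05 (0.108%). In clone 6, 14 of 13003 tested genes were called (0.108%) and 140 had a p under 0.05 (1.08%). In the authors' deposited table the lowest p in clone 7 was 0.01175 and the lowest q was 0.444. The values that follow are therefore levels and differences, none of which passed the threshold.

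Among the genes with the lowest p-values, 4 were lower with doxycycline (0.031%), and 3 of them, Ddit4, Egln3 and Pfkfb3, are known targets of the hypoxia-inducible factors. Ddit4 restrains the growth kinase complex mTORC1, Egln3 is a prolyl hydroxylase that marks the factors for degradation, and Pfkfb3 makes the activator of phosphofructokinase. Their RefSeq promoters (GRCm38.p6, minus strand, 250 bases ending at the base before the gene start) are printed because each holds 1 copy of ACGTG, the core letters of the hypoxia response element, shown in capitals and searched on both strands. The windows are chr10:59951771-59952020 for Ddit4, chr12:54203875-54204124 for Egln3 and chr2:11553930-11554179 for Pfkfb3.
Ddit4: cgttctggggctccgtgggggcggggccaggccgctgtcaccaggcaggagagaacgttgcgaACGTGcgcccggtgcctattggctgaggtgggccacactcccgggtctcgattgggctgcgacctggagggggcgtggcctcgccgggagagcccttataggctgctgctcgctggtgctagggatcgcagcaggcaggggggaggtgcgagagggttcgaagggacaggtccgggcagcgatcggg
Egln3: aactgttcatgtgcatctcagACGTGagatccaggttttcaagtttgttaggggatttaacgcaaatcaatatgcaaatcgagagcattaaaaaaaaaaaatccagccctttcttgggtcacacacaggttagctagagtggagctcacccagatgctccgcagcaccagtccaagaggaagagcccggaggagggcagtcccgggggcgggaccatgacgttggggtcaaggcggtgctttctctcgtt
Pfkfb3: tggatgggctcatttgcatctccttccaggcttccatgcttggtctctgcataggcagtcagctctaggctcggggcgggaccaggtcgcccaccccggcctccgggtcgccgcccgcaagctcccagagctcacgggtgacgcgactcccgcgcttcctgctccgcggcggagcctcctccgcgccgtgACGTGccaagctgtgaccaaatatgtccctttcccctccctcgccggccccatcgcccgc
The first base of the match lay 187 bases before the start in Ddit4, 229 in Egln3 and 60 in Pfkfb3. ACGTG stood in 22.5% of the 8874 promoters found among 12093 genes at 1 FPKM or more other than very short RNAs. It stood in 9 of 20 promoters of the hypoxia-inducible list (45%), 8 of 21 of the glycolysis list (38.1%) and 5 of 14 of the naive pluripotency list (35.7%). These matches describe letters only, and no binding was measured.

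Ddit4 (chromosome 10, 59949674 to 59951770) was at 43.9 FPKM with and 65.8 FPKM without doxycycline in clone 7, and at 56.5 and 59.1 FPKM in clone 6. Its p in clone 7 was 0.01175 in the authors' deposited table, the lowest of all genes. Egln3 stood at 14.1 and 20.3 FPKM in clone 7 and at 6.78 and 10.4 FPKM in clone 6, with p = 0.03305 and p = 0.0148 in the authors' deposited table. Both clones thus had the lower Egln3 value with doxycycline, whereas for Ddit4 the values of clone 6 lay close together. Pfkfb3 was at 6.49 and 9.91 FPKM in clone 7 and 7.75 and 8.89 FPKM in clone 6. Prex2, an activator of the small GTPase Rac, stood at 4.10 and 6.21 FPKM in clone 7. In clone 6 it was at 3.28 and 7.02 FPKM, where it was among the called genes.

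The other 10 genes with a p under 0.05 were higher with doxycycline (0.0775%), and 3 of them encode transcription factors of the naive state. Nr0b1, an orphan nuclear receptor that partners with Nr5a2 and Esrrb, was at 41.8 FPKM with and 28.0 FPKM without doxycycline. Its clone 6 values were 15.1 and 10.1 FPKM, so both clones had a 1.49-fold or similar ratio at different levels. Gbx2, a homeobox factor downstream of Lif signalling, was at 37.2 and 25.0 FPKM in clone 7 and 7.77 and 6.04 FPKM in clone 6. Nr5a2, a nuclear receptor that can activate Pou5f1, stood at 5.74 and 3.61 FPKM in clone 7 and 3.21 and 2.28 FPKM in clone 6. For Nr0b1 and Gbx2 the gap between the clones was wider than the gap between the doxycycline groups of either clone.

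The remaining higher values belonged to genes of mixed function. Slc29a1, a nucleoside transporter, was at 84.4 and 59.9 FPKM, and its neighbour on chromosome 17, Gm7325, was at 11.9 and 6.11 FPKM. Gm7325 begins at 45600966, just past the end of Slc29a1 at 45599603. Cobl, an actin nucleator, stood at 7.55 and 5.05 FPKM, and Lama1, a laminin chain of the basement membrane, at 5.13 and 3.48 FPKM. Ppp1r14d, an inhibitor of protein phosphatase, was near the detection limit at 1.57 and 0.361 FPKM, and it was the one gene of the 14 whose sign was opposite in clone 6 (0.365 and 0.651 FPKM). An entry whose deposited name had turned into a date lies at the Septin1 locus of RefSeq (chromosome 7, 127214441 to 127218445, covering a share of 0.197 of it), and it was at 37.4 and 23.2 FPKM in clone 7 and 35.9 and 24.2 FPKM in clone 6. The small nucleolar RNA entry Snord83b stood at 979 FPKM in the doxycycline group and was listed at 0 in the other.

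**Figure D1:**
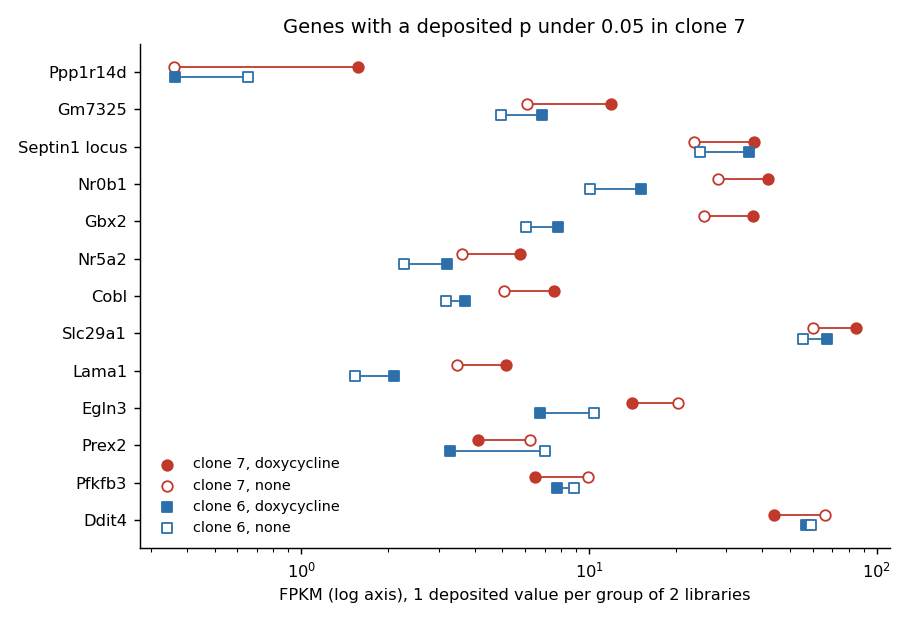
FPKM (log axis) of 13 of the 14 genes with a deposited p under 0.05 in clone 7, with circles for clone 7, squares for clone 6, filled marks with doxycycline and open marks without it; each mark is 1 deposited value for 2 libraries, so there is no error bar. Snord83b, listed at 0 without doxycycline, is left out, and in Ppp1r14d alone the filled mark lies on opposite sides of the open mark in the 2 clones.

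The deposited test statistic gives a standard error for each log2 ratio, and 95% intervals were built from it. The interval excluded 0 for 5 of the 13 genes that had one (Ddit4, Gbx2, Nr0b1, Ppp1r14d and the Septin1 entry), and for 30 of 12037 genes with an interval. The log2 ratio of Nr0b1 was 0.58 with an interval of 0.08 to 1.07, that of Ddit4 was -0.59 with -1.08 to -0.09, and that of Nr5a2 was 0.67 with -0.49 to 1.83. These intervals are approximate, since the deposited p is not the normal p of the statistic: Snhg9, a small nucleolar RNA host, has an interval of -1.35 to -0.87 beside p = 0.3439 in the authors' deposited table. Among those 14 genes, 13 had the same sign in clone 6, against 53.6% of all 12239 genes. In clone 6, 3 of them had a p under 0.05 (Prex2, Egln3 and the Septin1 entry), against 1.08% of all tested genes. The difference between the clones could be tested for 12 of the 14, all but Ppp1r14d and Snord83b. Of these 12, 0 had an adjusted p under 0.05 (0.142% of all genes), and 0 had a p under 0.05 (0.459%).

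Across the genes, differences were small. On the log2(FPKM + 1) scale, which understates the differences of low genes, the median over the 12093 genes other than very short RNAs was 0.02, with quartiles of -0.06 and 0.09. Of these, 97.3% lay within 1.25-fold and 76.9% within 1.1-fold. Over all 12239 genes, 62 were 1.5-fold or more higher (0.507%) and 93 lower (0.76%), and 99 of these were among the 146 very short RNA genes. Without the short RNAs 21 were higher and 35 lower, against 51 and 31 in clone 6. The SD of the difference over genes was 0.171 in clone 7 and 0.161 in clone 6.

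**Figure D2:**
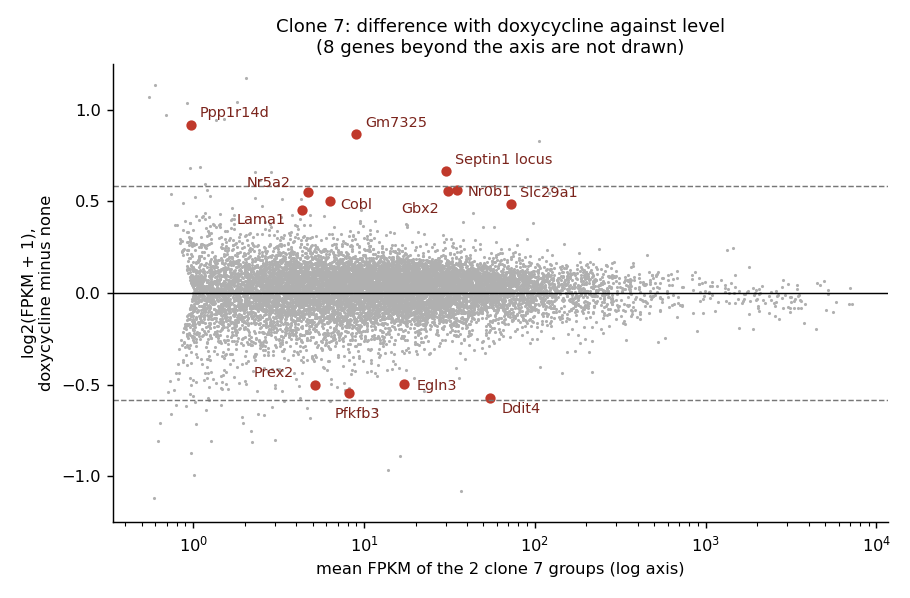
Difference between the doxycycline group and the group without it in clone 7 (log2(FPKM + 1)) against the mean FPKM of both groups (log axis), 1 point per gene, very short RNA genes left out. Dashed lines mark 1.5-fold, red points the genes with a deposited p under 0.05, and the grey cloud narrows as the level increases.

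The standard errors given by the deposited statistic depended on the level. The median standard error of the log2 ratio was 0.567 for 3535 genes whose higher value was 1 to 5 FPKM, which makes the half-width of the 95% interval 2.16-fold. It was 0.395 (1.71-fold) for 4290 genes at 5 to 20 FPKM and 0.304 (1.51-fold) for 3338 genes at 20 to 100 FPKM. For 930 genes at 100 FPKM or more it was 0.232 (1.37-fold). These are medians, and genes with smaller errors than the median of their level had narrower intervals. From the lowest level to the highest, the SD of the log2(FPKM + 1) differences over genes was 0.178, 0.142, 0.107 and 0.355. It was below the median error at every level but the highest. The highest level includes LOC100861570, with a difference of -10.1, and the interquartile range there was 0.117. These intervals may thus overstate the error, although the log2(FPKM + 1) scale makes differences of low genes smaller than their log2 ratios.

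Gene lists were then described by how many members lay above and below 0. The background was 58% of 12239 genes above 0 and 42% below. The factors and markers of naive pluripotency stood furthest above: of 25 listed genes, 24 reached 1 FPKM, and each of these 24 was higher with doxycycline, with a median difference of 0.26 and a range of 0.08 to 0.56. The 25th, Spic, was at 0.173 FPKM with and 0.356 FPKM without doxycycline. In clone 6, 21 of the 24 were above 0, with a median of 0.31, where the background was 50.1%. The same 21 genes had the same sign in both clones, against 53.6% of all 12239 genes. Both clones were grown in the same 2 experiments, and the part this plays was not tested.

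Esrrb, a nuclear receptor that can stand in for Nanog in self-renewal, had values of 43.1 and 32.8 FPKM in clone 7, with doxycycline given first as in the sentences that follow, and of 28.6 and 19.7 FPKM in clone 6. Klf4, a reprogramming factor held up by Lif, was at 19.9 and 15.1 FPKM in clone 7 and 12.2 and 9.17 FPKM in clone 6. Tcl1, a coactivator of the kinase Akt, was at 11.3 and 7.99 FPKM in clone 7 and 7.51 and 4.85 FPKM in clone 6. In all 3 genes both clones had the higher value with doxycycline. Tfcp2l1, another target of Lif and Stat3, was at 5.22 and 4.06 FPKM, and Klf2 at 39.6 and 34.4 FPKM, in clone 7. Dppa5a, the most abundant member, was at 1431 and 1218 FPKM. Prdm14, a repressor of Fgf signalling and DNA methylation, was at 1.42 and 0.818 FPKM, so it passed the 1 FPKM minimum in the doxycycline group only.

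Members near the low end of the range included Zfp42, the marker also called Rex1, at 20.1 and 18.9 FPKM, and Tbx3 at 2.32 and 2.14 FPKM. In clone 6 Zfp42 was at 88.3 and 58.8 FPKM, so the level of this marker differed between the clones more than with doxycycline. The 3 members below 0 in clone 6 were Fgf4 (25.5 and 28.9 FPKM), Gdf3 (39.1 and 45.3 FPKM) and Trim24 (44.2 and 46.4 FPKM). Their clone 7 values were 53.1 and 49.4, 41.4 and 37.4, and 51.2 and 46.2 FPKM. No member of the list had a q under 0.05.

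The core factors shared by naive and primed cells showed smaller differences. Of 13 genes, 12 were above 0 in clone 7 with a median of 0.12, and 4 were above 0 in clone 6 with a median of -0.13. Pou5f1 was at 1108 and 1080 FPKM, Nanog at 68.5 and 57.9 FPKM and Sox2 at 196 and 168 FPKM in clone 7. Utf1 was the member below 0, at 925 and 999 FPKM. Genes of the formative and primed epiblast split 8 above and 10 below 0, with a median of -0.03 in clone 7 and -0.25 in clone 6. Among them Lef1, a nuclear effector of Wnt, was at 21.4 and 27.1 FPKM and Sox3 at 17.9 and 22.6 FPKM, while Dnmt3b, a de novo DNA methyltransferase, was at 397 and 430 FPKM.

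Signalling genes that act on this network were also listed. All 11 genes of Fgf receptors and Erk feedback lay above 0 in clone 7, with a median of 0.17, and 7 of 11 in clone 6, with a median of 0.05. Spry4, a feedback inhibitor of receptor tyrosine kinases, was at 32.1 and 26.3 FPKM, Spry2 at 59.3 and 50.9 FPKM, and Etv5, a transcription factor induced by Erk, at 141 and 126 FPKM. Of 12 genes of the Lif, Jak and Stat3 pathway 11 were above 0, with a median of 0.06. Lifr, the Lif receptor, was at 7.74 and 6.13 FPKM and Stat3 at 24.1 and 23.4 FPKM. None of these genes had a p under 0.05 in clone 7. In clone 6, 11 of the 12 genes of the Lif, Jak and Stat3 pathway were above 0, with a median of 0.08. The kinase Jak2 was called there, at 5.30 FPKM with and 2.53 FPKM without doxycycline.

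Hypoxia-inducible genes lay mostly below 0. Of 28 listed genes outside glycolysis, 26 reached 1 FPKM, of which 22 were lower with doxycycline and 4 higher, with a median of -0.13 in clone 7. In clone 6, 23 of the 26 were below 0, with a median of -0.20, against 49.6% of all genes, and 23 of 26 had the same sign in both clones. Below 1 FPKM, Car9 was at 0.456 and 0.858 FPKM and Ppp1r3c at 0.102 and 0.207 FPKM. Ndufa4l2, which replaces a respiratory chain subunit in low oxygen, was at 11.1 and 21.5 FPKM in clone 7 and 2.55 and 8.06 FPKM in clone 6. Its p was 0.3492 in the authors' deposited table, and its log2 ratio of -0.95 had a standard error of 0.95.

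Further members stood at intermediate levels. Adm, the vasodilator peptide adrenomedullin, was at 1.03 and 1.92 FPKM, and Ankrd37 at 5.01 and 7.04 FPKM in clone 7 and 5.24 and 7.52 FPKM in clone 6. Egln1, the main prolyl hydroxylase, was at 15.4 and 18.4 FPKM in clone 7 and 11.5 and 15.04 FPKM in clone 6. For both genes the value with doxycycline was the lower one in each clone, and for Egln1 the clones also differed in level. Fam162a, the most abundant member, was at 165 and 194 FPKM, and Ndrg1 at 4.95 and 6.36 FPKM. Vegfa, the angiogenic growth factor, lay slightly above 0 at 14.96 and 14.4 FPKM, and Mxi1, an antagonist of Myc, at 4.62 and 4.10 FPKM. Bnip3 and Bnip3l, receptors for the removal of mitochondria, differed little, with 91.7 and 94.5 FPKM for the first and 36.2 and 36.3 FPKM for the second. Of the factors themselves, Hif1a was at 35.7 and 32.7 FPKM and its partner Arnt at 21.1 and 19.8 FPKM.

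Glycolysis, whose genes overlap with the targets of the same factors, had 16 of 23 members below 0 in clone 7 and 18 of 23 in clone 6, with medians of -0.11 in both, and 17 had the same sign. Slc16a3, the lactate exporter Mct4, was at 136 and 170 FPKM in clone 7 and 127 and 169 FPKM in clone 6. Pgk1, phosphoglycerate kinase, was at 825 and 953 FPKM in clone 7 and 648 and 859 FPKM in clone 6. Ldha, lactate dehydrogenase, stood at 1462 and 1667 FPKM in clone 7 and 1260 and 1581 FPKM in clone 6. Every one of these had the lower value with doxycycline in both clones. Tpi1 was at 480 and 578 FPKM, Aldoa at 1759 and 2016 FPKM and Gapdh at 2990 and 3213 FPKM in clone 7. Pdk1, the kinase that shuts pyruvate out of the mitochondria, was on the other side at 49.3 and 44.8 FPKM, as was the glucose kinase Hk2 at 58.8 and 57.0 FPKM, and the glucose transporter Slc2a3 was at 160 FPKM in both groups.

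**Figure D3:**
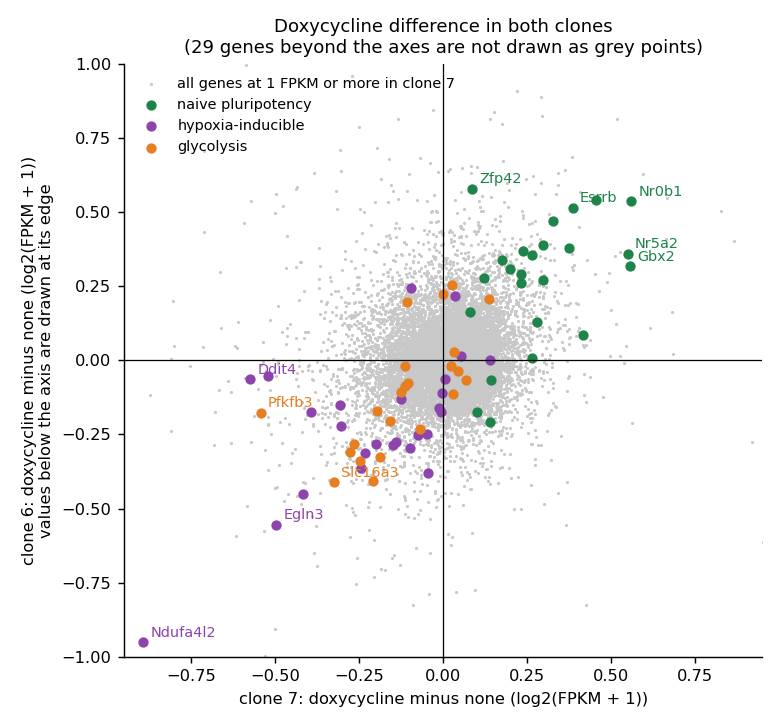
Difference between the doxycycline group and the group without it (log2(FPKM + 1)) in clone 6 against clone 7, 1 point per gene, very short RNA genes left out; coloured points are the listed genes at 1 FPKM or more. Naive pluripotency genes lie to the right of 0 and mostly above it, hypoxia-inducible and glycolysis genes mostly to the left and below.

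Nuclear genes for the mitochondrial ribosome, the organelle target of the drug, stood near the background. Of 77 members 40 were above 0 and 37 below, with a median of 0.01 and a range of -0.27 to 0.21, and the sign of this median turned when the groups were scaled to one sum, centred on all genes or centred by GC content. Centred by GC content, 32 were above 0 and 45 below in clone 7. In clone 6, before centring, 24 were above 0 and 53 below, with a median of -0.05. There 49.6% of all genes were below 0. Mrpl52 was at 259 and 281 FPKM, Mrpl12 at 226 and 259 FPKM and Mrpl35 at 10.7 and 9.11 FPKM in clone 7. Mitochondrial translation factors and aminoacyl-tRNA synthetases split 14 to 14. Among them Tufm, the elongation factor, was at 90.8 and 95.4 FPKM and Lars2, the leucyl-tRNA synthetase, at 44.6 and 39.0 FPKM.

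Respiratory chain genes were similar in clone 7 before centring. Members above and below 0 numbered 20 and 17 for complex I, 9 and 4 for complexes II and III, 5 and 6 for complex IV, and 8 and 7 for ATP synthase. Ndufs5, a subunit of complex I, was the exception in size at 0.0427 and 12.5 FPKM in clone 7 against 44.8 and 46.5 FPKM in clone 6, but the standard error of its log2 ratio was 12.8 and its p 0.26335 in the authors' deposited table. Mitochondrial chaperones and proteases had 9 of 12 members above 0, with Hspd1 at 548 and 507 FPKM and Lonp1 at 69.4 and 77.3 FPKM. The 16 genes of the tricarboxylic acid cycle and pyruvate dehydrogenase had 12 above 0, with Pdha1 at 86.1 and 76.1 FPKM. No deposited entry matched the list of genes encoded by mitochondrial DNA, so these genes could not be described.

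Atf4, which is known to answer mitochondrial stress through amino acid genes, was at 172 and 178 FPKM. Its target list of 34 genes split 19 above and 15 below 0, with a median of 0.01 whose sign turned when differences were centred on all genes. Among members below 0, Ddit3 (Chop) was at 9.01 and 14.5 FPKM with a standard error of 1.13 on its log2 ratio, Chac1 was at 4.83 and 7.77 FPKM and Trib3 at 9.90 and 13.9 FPKM. In clone 6 these 3 stood at 6.55 and 7.13, 3.48 and 3.67, and 11.3 and 10.3 FPKM. Among members above 0, Asns, the asparagine synthetase, was at 131 and 118 FPKM, Psat1 at 227 and 213 FPKM and Psph, at the top of the list, at 35.8 and 29.8 FPKM. Genes of the endoplasmic reticulum stress response were above 0 in 12 of 15 in clone 7, with Hspa5 at 276 and 270 FPKM. Centred by GC content, 8 were above 0 and 7 below. In clone 6, before centring, 4 were above 0 and 11 below.

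**Figure D4:**
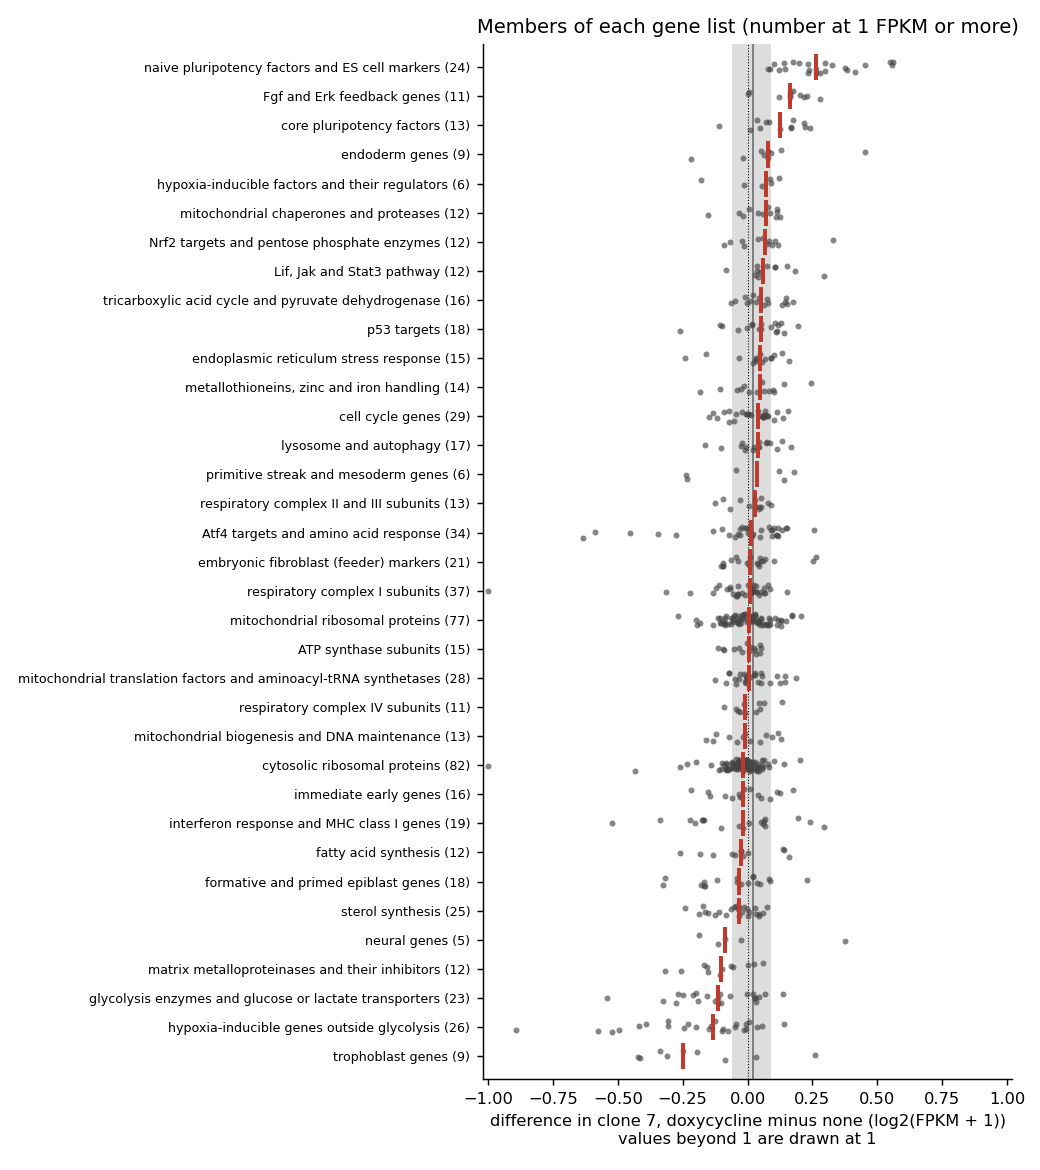
Difference between the clone 7 group with doxycycline and the group without it (log2(FPKM + 1)) for the members of 35 gene lists with 5 or more genes at 1 FPKM or more, 1 grey point per gene and a red bar at the list's median; the grey band holds the quartiles of all genes and the grey line their median. Naive pluripotency genes lie furthest to the right, and trophoblast, hypoxia-inducible and glycolysis genes furthest to the left.

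Lineage genes other than pluripotency factors were few at 1 FPKM or more. Of 15 trophoblast genes 9 reached it, 7 of these lay below 0 and the median was -0.25 in clone 7 against 0.33 in clone 6. The keratins made up much of this list: Krt18 was at 35.0 and 41.8 FPKM, Krt8 at 26.8 and 30.8 FPKM, Krt19 at 12.4 and 16.8 FPKM and Krt7 at 2.18 and 3.26 FPKM. The defining trophoblast factors Cdx2, Elf5 and Gata3 stayed at or under 0.514 FPKM. Of 21 fibroblast markers at 1 FPKM or more 13 were above 0 and 8 below, with Vim at 228 and 227 FPKM and Col1a1 at 86.8 and 92.8 FPKM. In libraries of bulk cells, fewer cells of a type and less RNA per cell cannot be told apart.

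The genes called in clone 6 were looked up in clone 7, where no transgene was present. Of 14 such genes 13 reached 1 FPKM in clone 7. The sign was the same for 5 and opposite for 8, where 53.6% of all 12239 genes had the same sign. Of the 14, 1, Prex2, had a p under 0.05 in clone 7, against 0.108% of all tested genes. Prss50, a testis protease, was at 3.21 and 4.82 FPKM in clone 7 against 12.2 and 3.83 FPKM in clone 6. Rec8, a meiotic cohesin subunit, was at 6.16 and 6.93 FPKM against 14.1 and 5.74 FPKM. Cited1, a transcriptional coactivator, was at 1.69 and 1.61 FPKM against 13.5 and 3.92 FPKM, and Id2, an inhibitor of helix-loop-helix factors, at 40.0 and 39.0 FPKM against 22.8 and 39.8 FPKM. Across 12093 genes the correlation of the 2 clones' differences was 0.14 by Spearman and 0.12 by Pearson, as a description over genes, which are not independent.

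The clone 7 differences followed the GC content of the transcript, and those of clone 6 hardly did. Over 11970 genes matched to a GENCODE transcript, Spearman's rho between the difference and GC percent was -0.44 in clone 7 and 0.03 in clone 6, and among 4245 genes at 20 FPKM or more in clone 7 it was -0.53. In 5 equal groups of genes ordered by GC, with median GC of 41.5, 46.2, 50.1, 53.9 and 58.2%, the median difference was 0.08, 0.05, 0.02, -0.01 and -0.07. The share of genes above 0 went from 83.5% to 28.8%. Transcript length had a rho of 0.12. Set against the 2 clone 6 groups, the clone 7 group with doxycycline had rho of -0.20 and -0.19 with GC, and the clone 7 group without it 0.03 and 0.05, so the doxycycline group of clone 7 was the one that stood apart.

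**Figure D5:**
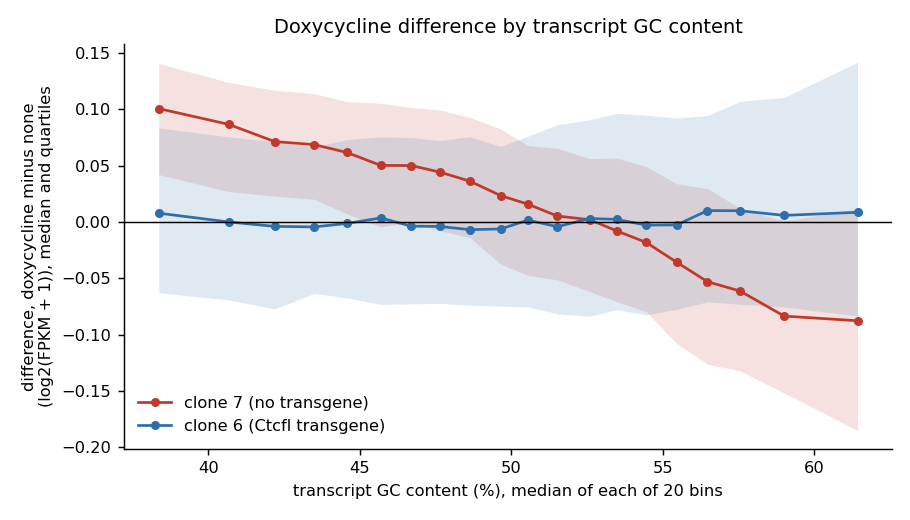
Median difference between the doxycycline group and the group without it (log2(FPKM + 1), line) and quartiles (shading) in 20 equal bins of 11970 genes by transcript GC content, for clone 7 (red) and clone 6 (blue). The clone 7 median runs from 0.10 at 38.4% GC to -0.09 at 61.4% GC, and the clone 6 median stays within 0.01 of 0.

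The lists above were therefore also read with each gene's difference centred within its GC bin, after which 50% of 11970 genes lay above 0. The naive pluripotency genes, with a median GC of 50.0%, had a median of 0.24 with 24 of 24 above 0, Prdm14 among them. Hypoxia-inducible genes had a median of -0.15 with 23 of 26 below 0, and glycolysis genes -0.07 with 18 of 23 below 0. Fgf and Erk feedback genes had a median of 0.15 with 11 of 11 above 0, core pluripotency factors 0.10 with 10 of 13 above 0, and trophoblast genes -0.20 with 7 of 9 below 0. Ddit4, at 57.9% GC, had a centred difference of -0.51 against -0.57 before. Chromosomes differed before this centring, when 73.2% of 425 genes on chromosome 13 lay above 0 and 46.6% of 648 genes on chromosome 17. With it the shares were 51.6% of 417 genes and 45.9% of 639 genes.

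Several genes outside these lists were among those with the largest differences at 5 FPKM or more, very short RNAs aside. LOC100861570 was listed at 0 with and at 1134 FPKM without doxycycline in clone 7. It was at 0 in both clone 6 groups, and its clone 7 p was 0.1207 in the authors' deposited table. LOC100302567 was at 52.0 and 276 FPKM, with a standard error of 33.4 on its log2 ratio of -2.41. Snhg9 was at 23.4 and 50.5 FPKM in clone 7 and 57.5 and 55.2 FPKM in clone 6. Dynlt1f, a dynein light chain entry, was at 9.10 and 18.7 FPKM, and Bhlhe41, a circadian repressor, at 3.48 and 6.19 FPKM. On the other side, Gm12238 was at 10.5 and 3.13 FPKM, with a standard error of 28.6 on its log2 ratio of 1.75. G3bp2, a stress granule protein, was at 144 and 98.4 FPKM. Got1l1 was at 5.20 and 3.35 FPKM and Syce3, a synaptonemal complex protein, at 7.90 and 5.31 FPKM. For G3bp2 the deposited fold change is not the ratio of its FPKM values. Of the 146 very short RNA genes, 27 were listed at 0 without doxycycline only and 31 with doxycycline only.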

How the data were processed

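Per the file headers, the authors deposited FPKM as 1 value per gene and group, in a table laid out as Cuffdiff writes it. The authors also deposited the log2 fold change and the test statistic, a score whose scale is not fixed. The deposited p-value is unadjusted, and the deposited q-value was adjusted by the authors over the tests of all comparisons. TopHat2 2.0.8, Cufflinks 2.1.1 and build mm10 are named per the submitters' processing notes. The sources used here do not give their roles, the annotation or the strand setting.

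Differences are log2(FPKM + 1) with doxycycline minus without. A gene was called at a deposited q under 0.05. The labels call the libraries biological replicates without saying that cultures were separate, so p-values speak for these libraries only. How the deposited p combines the spread between libraries with other error is not given. It was under 0.05 for 0.108% of tested genes in clone 7 and above 0.5 for 85.6%. Low values were thus rarer than evenly spread p-values would give. Standard errors are the log2 ratio over the deposited statistic. The clones' differences were compared with a two-sided normal test, with Benjamini-Hochberg adjustment over 12634 genes. This step was run on simulated normal differences that took the same standard errors as true. Such a run checks the calculation but cannot check those errors. GC content came from GENCODE transcripts (98.98% of genes matched). Scripts used Python 3.11.15, pandas 2.3.3, numpy 2.4.6 and scipy 1.17.1.

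Named genes are those with a deposited p under 0.05, the 10 largest differences in each direction at 5 FPKM or more, the 2 most abundant and 2 most different members of each list (every member where the text turns on a list), the genes called in clone 6, and Ctcf and Ctcfl. Stat3, Arnt and Hspa5 were added for their role after their values were seen. The 37 gene lists, of which the list for mitochondrial DNA matched no entry, and the genes were chosen with earlier results of these data known. Overlapping genes and near-identical copies are uncertain.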

Additional observations from a re-analysis of the deposited data

Results flagged for a closer look

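The test of the difference between the doxycycline responses of clone 7 and clone 6 gave 18 genes with an adjusted p under 0.05 of 12634 (0.142%), 7 with the higher response in clone 7 and 11 with the lower. Of these, 15 were very short RNA genes, whose FPKM values divide by a very short length. The other 3 had a lower response in clone 7. For Snhg9 the response in clone 7 minus that in clone 6 was -1.17 (standard error 0.145) on the log2 scale. For the histone gene Hist1h3c, at 0.259 FPKM with and 3.06 FPKM without doxycycline in clone 7 and 3.91 and 0.629 FPKM in clone 6, it was -6.20 (standard error 1.26). For the testis protease Prss50 it was -2.26 (standard error 0.527). Over all genes 58 had a p under 0.05 (0.459%). With standard errors taken from the deposited p-values, 0 genes had an adjusted p under 0.05 and 26 had a p under 0.05.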

How the results depend on the processing

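The file holds 1 value per group, so no library could be left out. No paired analysis was possible because the deposited group values carry no replicate number. The count of called genes was 0 with the deposited q, with adjustment within clone 7 alone and over genes at 1 FPKM or more (smallest adjusted p 1.00 in both), and it was 14 with unadjusted p-values. The number of genes past 1.5-fold, 155 as reported (62 higher and 93 lower), was 258 with a pseudocount of 0.1 FPKM (101 and 157), 56 without very short RNA genes (21 and 35) and 49 when centred by transcript GC (22 and 27). The last covers only the 11970 genes with a transcript, none of them a very short RNA, of which 53 were past 1.5-fold before centring (20 and 33). It was 88 higher and 140 lower for ratios with no pseudocount. The ratio and the GC centring were chosen after seeing the data. The 18 genes whose response differed between the clones became 0 with standard errors from the deposited p-values. Medians of the naive pluripotency, hypoxia-inducible and glycolysis lists moved by 0.05 or less under the 6 alternatives run for each. Of 36 lists, 28 kept the sign of their median under these alternatives and 8 had another sign under some. Of 134 differences of 28 named genes under alternatives, 0 had another sign. These genes were picked for a low p or a large difference, so the alternatives could hardly turn a sign. Of the 134, 8 moved by more than their standard error. They belonged to Ppp1r14d and to Snord83b and LOC100861570, which have no standard error. Depth is unknown, and the median half-width of the 95% interval was 1.37-fold to 2.16-fold, by level.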

Other observations

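Other lists held genes that doxycycline or cell stress are known to touch, and several of them had more members below 0 than the 42% of all genes. Among interferon response and MHC class I genes 9 were above 0 and 10 below, with the immunoproteasome subunit Psmb8 at 6.50 FPKM with and 9.76 FPKM without doxycycline in clone 7 and 11.04 and 14.6 FPKM in clone 6, and Ifitm1, a membrane protein of virus defence, at 257 and 217 FPKM. Matrix metalloproteinases, enzymes that doxycycline is known to inhibit, and their Timp inhibitors had 3 members above and 9 below 0, with a median of -0.10, Mmp15 at 3.35 and 4.42 FPKM and Timp1 at 88.6 and 92.0 FPKM. Sterol synthesis genes split 8 above and 17 below 0 with a median of -0.03. After centring by GC content 22 of these 25 were below 0, with a median of -0.05, and in clone 6, before centring, 21 of 25 were, with a median of -0.10. Fatty acid synthesis genes split 4 and 8, with Fasn at 95.6 and 109 FPKM.

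Cytosolic ribosomal protein genes split 30 above and 52 below 0, with a median of -0.02 and Rpl41 at 7084 and 7380 FPKM. Metallothionein, zinc and iron genes had 9 above and 5 below 0, and after centring by GC content 7 and 7. Among them Mt2 was at 1574 and 1327 FPKM in clone 7 and 1359 and 889 FPKM in clone 6. Targets of p53 had 13 above and 5 below 0 in clone 7, and 12 and 6 after centring. In clone 6, before centring, these targets had 3 above and 15 below. The death gene Bbc3 was at 29.5 and 35.5 FPKM in clone 7. Cell cycle genes split 18 and 11 in clone 7, with Pcna at 324 and 322 FPKM. Lysosome and autophagy genes split 11 to 6, targets of Nrf2 8 to 4, with Nqo1 at 23.02 and 18.1 FPKM, and immediate early genes 7 to 9. No member of these lists had a q under 0.05 in clone 7. The median deposited p over tested genes was 0.759 in clone 7 and 0.717 in clone 6, and 85.6% of tested genes in clone 7 had a p above 0.5.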
